A study of Mus musculus with 7 samples.

Results

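The 10 genes described here mark basophils and mast cells: Fcer1a and Ms4a2, Cpa3, Mcpt8 and Prss34, Hdc and Cyp11a1, Il4, Gata2 and Kit. They were chosen by name as known genes of these cells, with earlier results of these data known, out of 55414 genes in the table. All 10 had reads in every library. RNA sequencing counts came from spleens of mice of 2 groups, wild type (WT, n = 3, genotype labelled C57BL/6N) and Fpr2KO (n = 4), which lack Fpr2, a receptor of myeloid cells for formylated peptides. No treatment was labelled for either group, and the sources used here give neither age and sex of the mice nor the background strain of the Fpr2KO mice. Replicates are numbered in the labels, which do not say whether different numbers are different mice. The p-values below therefore measure only how far these samples spread, which may be technical.

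Basophils and mast cells both carry the high-affinity receptor for IgE on their surface and store histamine and proteases in granules, which they release when antigen crosslinks that IgE. Basophils are short-lived blood granulocytes made in the bone marrow and also found in the spleen, whereas mast cells mature in connective tissue and mucosa and are scarce in mouse spleen. Gata2 is a transcription factor needed by both lineages and by blood stem cells, and Kit is the receptor for stem cell factor on mast cells and on progenitors.

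Libraries held between 14968605 and 18692809 counts. Levels are given as CPM, reads divided by TMM-adjusted library size, and 3 reads in a library corresponded to between 0.156 and 0.201 CPM. Reads of Fpr2 numbered 537, 479 and 477 in WT and 0 in each Fpr2KO library, so the targeted gene followed the labels. Markers of B and T cells summed to between 3364 and 3904 CPM in every library. Pancreatic acinar genes summed to 1081 CPM in Fpr2KO replicate 1 and 615 in replicate 2, against 24.4 to 49.1 in the other libraries, and adipocyte genes to 96.6 CPM in WT replicate 3 against 37.6 to 54.4 elsewhere. For the 7 members with lower means, the fits without Fpr2KO replicates 1 and 2 and without WT replicate 3 are given with each gene.

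Promoter sequences of 4 members are shown because GATA factors bind short motifs and 1 of the members is Gata2 itself. The windows come from RefSeq (GRCm38.p6), 5′ to 3′ on the strand of the gene, and end at the base before the annotated start. Capitals mark AGATAA or AGATAG, or the same letters with T first (TGATAA and likewise TGATAG), on either strand, the forms of the motif that were searched, with overlapping matches counted separately. Ms4a2 is shown for its 3 matches, Cpa3 and Prss34 for a match close to the start, and Mcpt8, the member with the largest fold difference, for having no match.
Ms4a2, chr19:11623720-11623969, minus strand: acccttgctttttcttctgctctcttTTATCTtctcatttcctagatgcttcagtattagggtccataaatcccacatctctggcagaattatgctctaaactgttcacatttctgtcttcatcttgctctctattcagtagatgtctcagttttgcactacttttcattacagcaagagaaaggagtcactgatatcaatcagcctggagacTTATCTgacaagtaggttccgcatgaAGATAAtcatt
Cpa3, chr3:20242182-20242431, minus strand: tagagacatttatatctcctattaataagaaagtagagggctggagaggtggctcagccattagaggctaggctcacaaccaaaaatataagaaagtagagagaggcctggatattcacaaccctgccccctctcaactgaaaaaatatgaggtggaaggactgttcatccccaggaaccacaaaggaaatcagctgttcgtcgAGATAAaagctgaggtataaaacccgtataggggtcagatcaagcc
Prss34, chr17:25298144-25298393, plus strand: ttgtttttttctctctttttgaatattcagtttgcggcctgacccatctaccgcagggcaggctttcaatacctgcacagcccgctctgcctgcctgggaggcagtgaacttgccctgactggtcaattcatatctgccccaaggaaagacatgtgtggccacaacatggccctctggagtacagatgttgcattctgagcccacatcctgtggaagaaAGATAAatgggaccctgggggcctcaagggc
Mcpt8, chr14:56085198-56085447, minus strand: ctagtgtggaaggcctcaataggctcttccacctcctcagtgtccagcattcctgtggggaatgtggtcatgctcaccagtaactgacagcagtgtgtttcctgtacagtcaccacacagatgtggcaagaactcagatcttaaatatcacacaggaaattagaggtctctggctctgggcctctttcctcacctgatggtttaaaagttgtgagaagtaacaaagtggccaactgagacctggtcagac

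Counting from the start of transcription, the matches in Ms4a2 began at positions -224, -37 and -11, that in Cpa3 at -46 and that in Prss34 at -31. All 10 members had a window in the table, 14 windows in all because some genes have several starts, each reaching from 250 bases before to 50 after the start. A match was found in 8 of the 14 windows, against 29.8% of all 32851 windows of mouse genes, and 1.76% of all windows held at least 3 matches. Counted by gene, 7 of the 10 members had a match, for which the share per window is not a like background. Fcer1a (at -92), Hdc (at -221) and 1 of the 2 Cyp11a1 windows (at -231) held a match each. Both windows of Il4 did too, 1 at -80 and 1 at 15, after the start. Neither window of Gata2 or of Kit held one, and the Kit windows, which begin at 75574737 and 75574741, nearly coincide. A match describes the letters only and was not tested for binding.

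Genes of the IgE receptor, the granule proteases and the enzymes had lower mean levels in Fpr2KO spleens, 7 members between 1.87 and 3.21 times lower, while Gata2, Kit and Il4 had nearly equal means in both groups. None of the 10 passed edgeR's quasi-likelihood test over all genes, in which 6 of 16089 genes, or 0.0373%, were called. The adjusted p of the members ran from 0.541 to 1.0. Without the low count filter edgeR called 0.0739% of genes and again no member. At an unadjusted p under 0.05 there were 7 members, all lower, where 3.07% of all genes were lower and 1.91% higher at that level. DESeq2 called 1 member, Hdc, among 57 genes (0.377%, with 0.324% lower), and limma-voom called 0. Both groups were apart, with every Fpr2KO library below every WT library, for 4 members (Fcer1a, Cpa3, Hdc and Cyp11a1), and 3.18% of all genes showed such a gap in that direction and 2.73% in the other. The median log2 fold change (Fpr2KO minus WT) of the 10 members was -1.25, beside 0.00 over all genes tested, and all 10 fitted values were negative, as were 51.4% of all. The values of Kit (-0.01) and Il4 (-0.08) changed sign in some alternative fits. With 2 other scalings, DESeq2 or limma-voom, 9 of the 10 were negative. These counts describe genes listed together as markers of basophils and mast cells, so the members cannot be taken as independent of one another. The list was also chosen with earlier results of these data known, so the shares over all genes are a background and not a test. In RNA from whole spleen, fewer cells of a type and less RNA per cell cannot be told apart.

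**Figure D1:**
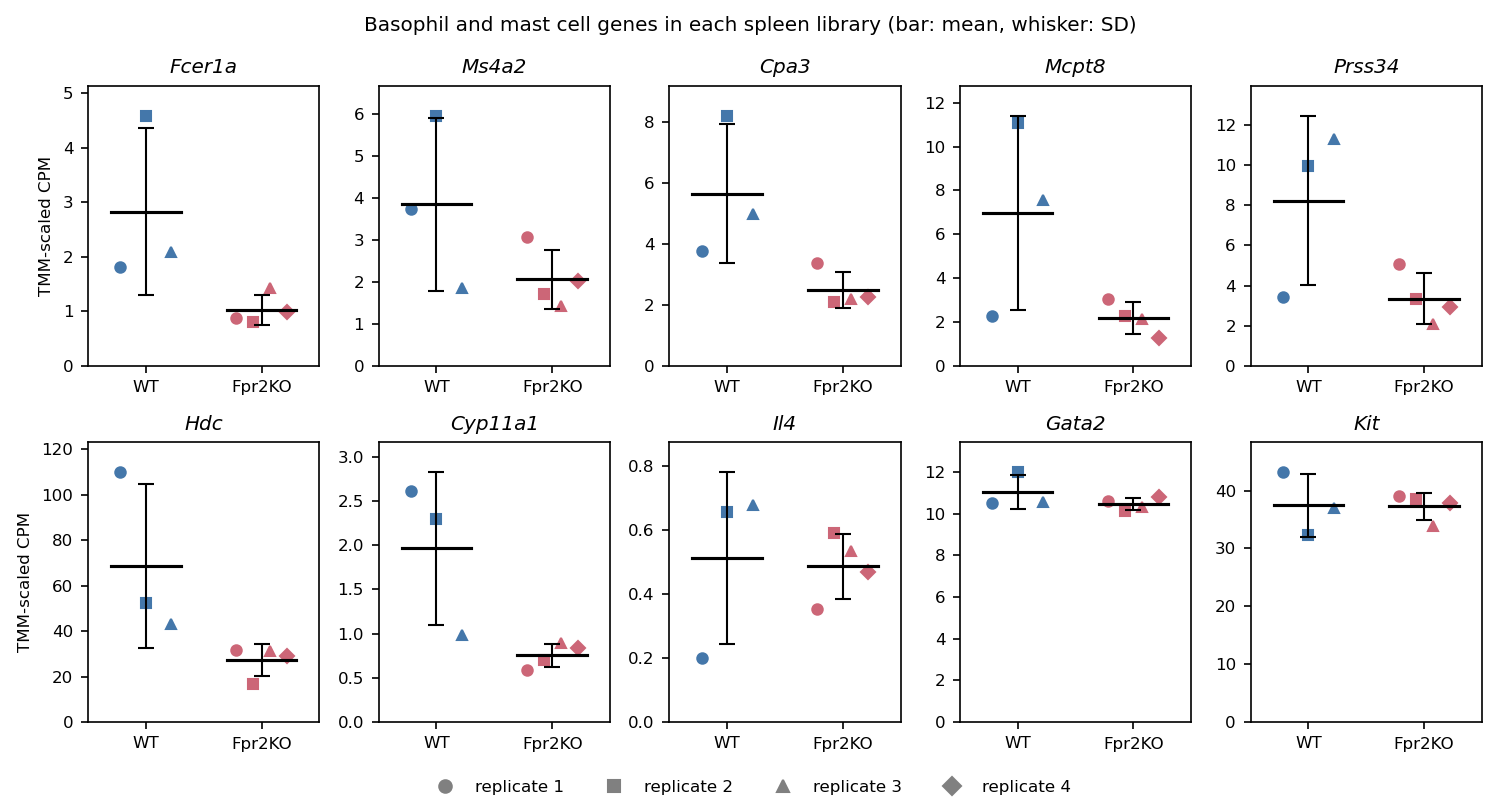
TMM-scaled CPM (y axis, from 0) of each of the 10 genes in the 3 WT and 4 Fpr2KO libraries (x axis). Marker shapes give the replicate number, the horizontal bar the mean and the whisker the SD. The upper panels show WT replicate 2 high for the receptor and protease genes, Hdc is highest in WT replicate 1, and Gata2 and Kit lie at like levels in both groups.

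Fcer1a encodes the chain of the high-affinity IgE receptor that binds IgE. Its level was 1.81, 4.59 and 2.09 CPM in WT replicates 1 to 3 and 0.883, 0.805, 1.42 and 0.991 in Fpr2KO replicates 1 to 4. All WT libraries lay above all Fpr2KO libraries, with WT replicate 2 well above the rest. The means were 2.83 ± 1.53 CPM (SD, n = 3) and 1.03 ± 0.275 (n = 4), a log2 fold change of -1.46 with SE 0.38 that did not pass (adjusted p = 0.576 with edgeR). It was -0.93 without WT replicate 2 (adjusted p = 1.0 with edgeR), -1.64 without WT replicate 3 and -1.23 without both Fpr2KO replicates 1 and 2. The gene lies on chromosome 1, 173221284 to 173227214 on the minus strand (ENSMUSG00000005339), in GENCODE M21 on GRCm38, the source of all gene positions here.

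Ms4a2 encodes the beta chain of the same receptor, which amplifies its signal. Its level was 3.75, 5.96 and 1.85 CPM in the WT libraries and 3.06, 1.72, 1.42 and 2.03 in the Fpr2KO libraries. The groups overlapped, since Fpr2KO replicates 1 and 4 lay above WT replicate 3. With means of 3.85 ± 2.06 CPM (n = 3) and 2.06 ± 0.714 (n = 4) it had the smallest difference of the 7 (log2 fold change -0.90, SE 0.40; edgeR adjusted p = 0.988), and that difference was -0.44 without WT replicate 2. Leaving out WT replicate 3 gave -1.24 for Ms4a2, and leaving out both Fpr2KO replicates 1 and 2 gave -1.14. Fcer1g, the gamma chain that signals for this and other Fc receptors in many cells, had between 161 and 196 CPM in the 7 libraries, with -0.02 on the log2 scale and SE 0.09 (adjusted p = 1.0 with edgeR). Fcer1g was named after its values were seen. Ms4a2 (ENSMUSG00000024680) lies on chromosome 19, 11615523 to 11623719, minus strand.

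Cpa3 encodes carboxypeptidase A3, a granule enzyme of mast cells and basophils. It had 3.75, 8.19 and 4.99 CPM in the WT libraries and 3.36, 2.09, 2.19 and 2.24 in the Fpr2KO libraries. Every WT library was above every Fpr2KO library, but WT replicate 1 and Fpr2KO replicate 1 were close. The means were 5.64 ± 2.29 CPM (n = 3) and 2.47 ± 0.593 (n = 4). Among the members Cpa3 had the smallest p, rank 69 among all genes, with a log2 fold change of -1.19 and SE 0.29 that did not pass (adjusted p = 0.541 with edgeR and 0.0639 with DESeq2). Without both Fpr2KO replicates 1 and 2, the libraries with pancreatic transcripts, it was -1.34, and without WT replicate 3 it was -1.27. Leaving out WT replicate 2, the highest library, gave -0.82 (adjusted p = 1.0 with edgeR). None of the 50-base words of Cpa3 occurred in the transcripts of another gene, pancreatic carboxypeptidases included. Cpa3 (ENSMUSG00000001865) lies on chromosome 3, 20215620 to 20242181, minus strand.

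Mcpt8 encodes a serine protease that in mice is a basophil marker. Its level was 2.28, 11.1 and 7.57 CPM in WT and 3.06, 2.25, 2.13 and 1.25 in Fpr2KO. WT replicates 2 and 3 stood above all other libraries, whereas WT replicate 1 lay among the Fpr2KO libraries and below Fpr2KO replicate 1. The means of 6.97 ± 4.43 CPM (n = 3) and 2.17 ± 0.741 (n = 4) gave the largest log2 fold change of the members, -1.68 (SE 0.51), which did not pass (edgeR adjusted p = 0.850; 0.0618 with DESeq2). Without WT replicate 2, the highest library, the value was -1.19 (adjusted p = 1.0 with edgeR), and without WT replicate 1, the lowest WT library, it was -2.10 (adjusted p = 0.118 with edgeR). Mcpt8 was at -1.62 without WT replicate 3 and at -2.05 without both Fpr2KO replicates 1 and 2. Mcpt8 (ENSMUSG00000022157) lies on chromosome 14, 56082166 to 56085273, minus strand, in a cluster of granule proteases that also holds Ctsg, Mcpt4, Mcpt2 and Mcpt1 within 0.0618 Mb.

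Prss34 encodes a tryptase-like serine protease, mMCP-11, of basophils. It had 3.42, 9.96 and 11.3 CPM in WT and 5.06, 3.33, 2.07 and 2.92 in Fpr2KO, so that WT replicates 2 and 3 were high and WT replicate 1 lay within the Fpr2KO range. The means were 8.23 ± 4.23 CPM (n = 3) and 3.35 ± 1.26 (n = 4), a log2 fold change of -1.30 with SE 0.43 that did not pass (adjusted p = 0.884 with edgeR). Without WT replicate 3, its highest library, Prss34 was at -1.0, without WT replicate 1 at -1.67, and without both Fpr2KO replicates 1 and 2 at -1.72. Prss34 (ENSMUSG00000056399, chromosome 17, 25298394 to 25300165, plus strand) is the only member on the chromosome of the deleted gene, 7.40 Mb from Fpr2. The mast cell tryptase genes Tpsab1 and Tpsb2 lie beside it, 7.45 and 7.47 Mb from Fpr2.

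Hdc encodes histidine decarboxylase, which makes histamine. It is the marker of basophils and mast cells that is also known from neutrophils and immature myeloid cells. Hdc was at 110.0, 52.4 and 43.3 CPM in WT and at 31.7, 16.6, 31.4 and 29.1 in Fpr2KO. All WT libraries were above all Fpr2KO libraries, and the highest was WT replicate 1, the library in which the proteases were lowest among the WT. The means were 68.6 ± 36.2 CPM (n = 3) and 27.2 ± 7.16 (n = 4), which is -1.33 on the log2 scale with SE 0.40 (adjusted p = 0.872 with edgeR). DESeq2 called it (log2 fold change -1.32, adjusted p = 0.00647), the sole call of a member in any of 18 alternative fits. Without WT replicate 1 the edgeR value was -0.81 (adjusted p = 0.764), without WT replicate 3 it was -1.58, and without both Fpr2KO replicates 1 and 2 it was -1.17. Hdc (ENSMUSG00000027360) lies on chromosome 2, 126593667 to 126619299, minus strand.

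Cyp11a1 encodes the mitochondrial enzyme that cleaves the side chain of cholesterol, the first step of steroid synthesis, and is expressed by activated mast cells, basophils and some T cells. Its level was low, 2.61, 2.29 and 0.985 CPM in WT and 0.589, 0.697, 0.889 and 0.834 in Fpr2KO. The groups were apart by a narrow gap, between WT replicate 3 and Fpr2KO replicate 3. The means were 1.96 ± 0.863 CPM (n = 3) and 0.752 ± 0.135 (n = 4), which is -1.37 on the log2 scale with SE 0.37 (adjusted p = 0.613 with edgeR). The value was -1.11 without WT replicate 1, -1.69 without WT replicate 3 and -1.17 without both Fpr2KO replicates 1 and 2. Cyp11a1 (ENSMUSG00000032323, chromosome 9, 58006411 to 58027023, plus strand) shares 145 of its 4804 exon bases with the noncoding gene Gm17322 on the same strand, so reads there could have been left uncounted.

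Il4 encodes interleukin 4, the type 2 cytokine that basophils, mast cells and some T cells secrete. Its read counts were low, 3, 10 and 11 in WT against 6, 11, 9 and 9 in Fpr2KO. WT replicate 1 was lowest and the groups overlapped. Pooled reads gave 0.517 CPM in WT (95% exact Poisson interval 0.331 to 0.769) and 0.488 in Fpr2KO (0.340 to 0.679), intervals that cover counting error only. The fitted difference was -0.08 on the log2 scale with SE 0.47 (adjusted p = 1.0 with edgeR), and it was positive when WT replicate 2, WT replicate 3 or Fpr2KO replicate 1 was left out. Il4 (ENSMUSG00000000869) lies on chromosome 11, 53602982 to 53618669, minus strand.

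Gata2 was nearly level across all libraries, at 10.5, 12.0 and 10.6 CPM in WT and 10.6, 10.1, 10.3 and 10.8 in Fpr2KO. Its difference was -0.08 on the log2 scale with SE 0.12 (adjusted p = 1.0 with edgeR), and lay between -0.11 and -0.01 over the 18 alternatives. Kit was at 43.2, 32.3 and 37.0 CPM in WT and at 39.0, 38.5, 33.8 and 37.8 in Fpr2KO, a difference of -0.01 on the log2 scale with SE 0.11 (adjusted p = 1.0 with edgeR) and with values between -0.10 and 0.11 over the alternatives. WT replicate 2, which was highest for Cpa3, Mcpt8, Fcer1a and Ms4a2, was lowest for Kit. Gata2 (ENSMUSG00000015053) lies on chromosome 6, 88193891 to 88207032, and Kit (ENSMUSG00000005672) on chromosome 5, 75574916 to 75656722, both on the plus strand.

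**Figure D2:**
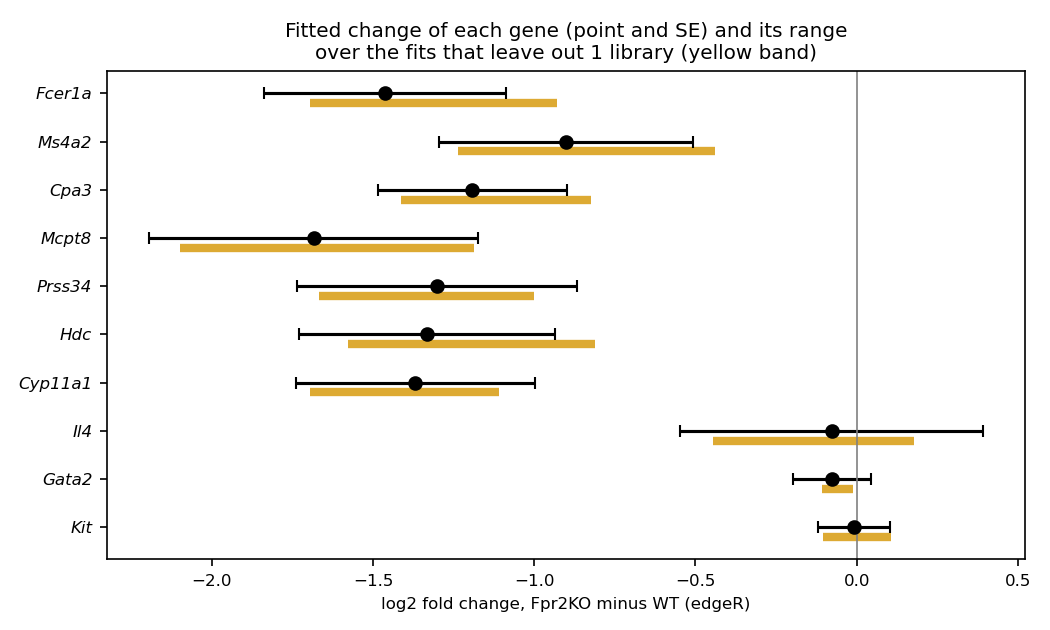
Log2 fold change, Fpr2KO minus WT, from the edgeR fit (x axis) for each of the 10 genes (y axis), with its standard error. The yellow band spans the lowest and highest values when 1 library is left out, which is -2.10 to -1.19 for Mcpt8 and -0.10 to 0.11 for Kit.

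Per kilobase of merged exon, the WT mean was highest for Hdc at 10.7 CPM per kb, followed by Mcpt8 at 6.99, Prss34 at 6.75, Kit at 4.21, Cpa3 at 3.72 and Fcer1a at 2.84. Gata2 at 2.04, Ms4a2 at 1.37, Il4 at 0.417 and Cyp11a1 at 0.409 CPM per kb came last. Among neighbours in this order the WT ranges overlapped in each case except Ms4a2 (0.656 to 2.12) against Il4 (0.164 to 0.552). By these ranges, the position of most members relative to the next is within the spread of the WT libraries. Compared within each library, Cpa3 was above Fcer1a, Gata2 above Ms4a2 and Ms4a2 above Il4 in all 3 WT libraries. Hdc was above Mcpt8 in 1 WT library, and Mcpt8 above Prss34 in 1. The other neighbours kept this order in 2. In Fpr2KO the means per kb of Hdc and Kit were 4.26 and 4.18, and those of Mcpt8 and Prss34 2.18 and 2.74.

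The order of the libraries was not the same for all members. Mcpt8 and Prss34 were high in WT replicates 2 and 3 and low in WT replicate 1, where they were at -0.49 and -0.40 log2 units relative to their own mean over the 7 libraries. Hdc and Cyp11a1 were highest in WT replicate 1, at 1.52 and 1.16 above their means. Cpa3 and Fcer1a were highest in WT replicate 2 with the other WT libraries between it and the Fpr2KO libraries. Over the 7 libraries Mcpt8 had a Pearson r of 0.91 with Prss34 and of 0.91 with Cpa3 (Spearman rho 0.93 and 0.82), and of 0.28 with Hdc (rho 0.68). These describe 7 libraries of 2 genotypes. Both genes of a pair share each library's depth and genotype, and the genotype groups themselves contribute to each value. Within Fpr2KO, replicate 1 had the highest level of Cpa3, Mcpt8, Prss34 and Ms4a2, and the lowest of Cyp11a1 and Il4. It was also highest by a small margin for Hdc (31.7 CPM, next 31.4) and Kit (39.0, next 38.5).

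**Figure D3:**
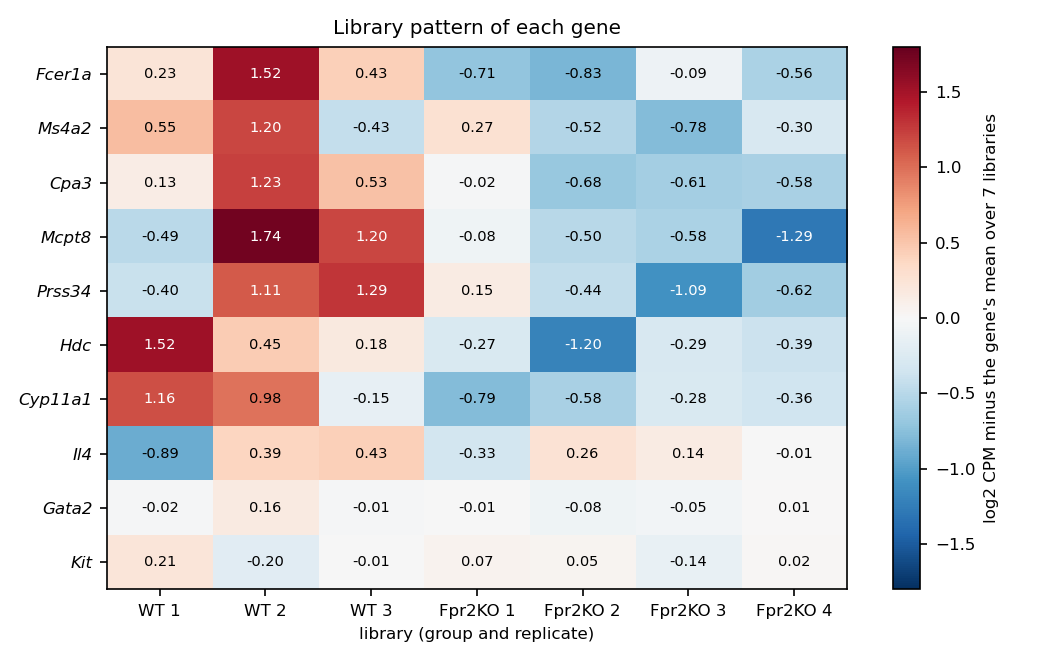
Log2 CPM of each gene (rows) in each library (columns) minus that gene's mean over the 7 libraries, with the value printed in each cell, red above and blue below the mean. In WT replicate 1 Mcpt8 reads -0.49 and Hdc 1.52, and in WT replicate 2 Mcpt8 reads 1.74 and Hdc 0.45.

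Mast cell granule genes outside the members were low, apart from Ctsg. Of 12 genes, 4 were tested, 0 passed edgeR's test (2 lower at an unadjusted p under 0.05, 0 with DESeq2) and 2, Mcpt9 and Cma2, had no read in any library. Mcpt4, a chymase of connective tissue mast cells, had 1.61, 3.28 and 2.28 CPM in WT and 0.824, 1.45, 0.770 and 1.15 in Fpr2KO (log2 fold change -1.18, SE 0.33; edgeR adjusted p = 0.707). Tpsb2, a tryptase, had 1.34, 1.77 and 0.985 CPM in WT and 0.648, 0.966, 0.592 and 0.313 in Fpr2KO (-1.11, SE 0.40; adjusted p = 0.892 with edgeR). The groups were apart for both, narrowly for each. Cma1, the mast cell chymase, was between 1.39 and 2.65 CPM in all libraries with overlapping groups (0.10, SE 0.28). Ctsg, which neutrophil precursors also express, had a log2 fold change of -0.59 (SE 0.60). Without Ctsg the list summed to 5.43, 8.65 and 5.79 CPM in WT and to 4.71, 4.29, 3.85 and 3.91 in Fpr2KO, against 9.45, 29.2 and 23.9, and 11.5, 7.67, 6.40 and 6.41, for Cpa3, Mcpt8 and Prss34 together.

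A further list of 21 basophil genes, many of them shared with other leukocytes, had 19 tested members with 14 lower and 5 higher and a median log2 fold change of -0.21. No gene of it passed edgeR's test. At an unadjusted p under 0.05 there were 3 lower and 1 higher, and DESeq2 called Alox5 alone. Alox5, the enzyme that starts leukotriene synthesis, had 26.9, 21.7 and 13.0 CPM in WT and 10.2, 7.99, 8.23 and 6.78 in Fpr2KO (-1.30, SE 0.24; edgeR adjusted p = 0.262). Csf2rb, the shared beta chain of the receptors for IL-3, IL-5 and GM-CSF, had 163, 122 and 127 CPM in WT and 104, 93.4, 100.1 and 110.0 in Fpr2KO (-0.43, SE 0.11; edgeR adjusted p = 0.576). Its relative Csf2rb2 was at -0.26 (SE 0.10) and the chemokine gene Ccl3 at 0.63 (SE 0.24), and neither passed. Cd200r3, an activating receptor found mainly on basophils and mast cells and which was picked with its values in view, had 1.07, 2.95 and 1.42 CPM in WT and between 1.30 and 1.42 in Fpr2KO, so its groups overlapped.

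The genes that act with the members follow. Of 28 IgE receptor signalling genes, all tested, 0 passed with edgeR or DESeq2, 1 was lower and 1 higher at an unadjusted p under 0.05, and the median log2 fold change was -0.06. Rasgrp4, a Ras activator known from mast cells and other myeloid cells, had 38.5, 26.8 and 24.2 CPM in WT and between 17.7 and 23.7 in Fpr2KO (-0.53, SE 0.17; edgeR adjusted p = 0.816). Rasgrp1, its relative in T cells, was at 0.23 (SE 0.09), and the adaptor gene Gab2 and the exocytosis gene Stxbp2 at -0.31 and -0.16. In the list of mediator synthesis, storage and breakdown 9 of 15 tested genes were lower and 6 higher, with a median of -0.05 and 0 edgeR calls (3 lower at an unadjusted p under 0.05; DESeq2 called Alox5). Besides Alox5 its smallest p belonged to Alox5ap (-0.38), the histamine receptor gene Hrh2 (-0.30) and the granule proteoglycan gene Srgn (-0.15). Slc18a2, the transporter that loads histamine into granules and named after its values were seen, was between 1.51 and 2.89 CPM with overlapping groups.

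Of 16 growth factor and receptor genes, 12 were tested, 8 lower and 4 higher, with a median of -0.14 and 0 calls by edgeR or DESeq2 (4 lower at an unadjusted p under 0.05). They included Csf2rb and Csf2rb2, Il7r (-0.44) and Il9r (-0.32), while Il3 and Il5 had no read in any library. Of 20 transcription factors of the lineage, 9 were lower and 11 higher with a median of 0.01 and 0 calls by either tool (1 lower and 1 higher at an unadjusted p under 0.05). Nfil3 had the largest difference among those named, 12.9, 9.11 and 8.99 CPM in WT against 5.65, 5.69, 7.40 and 6.31 in Fpr2KO (-0.72, SE 0.18; edgeR adjusted p = 0.546). Fli1 was at 0.23, Cebpa, a factor needed for basophil fate, at -0.24 and Gata3 at 0.28, and none passed.

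Other cells of the spleen express Gata2, Kit and Il4. Stem and progenitor genes had a median log2 fold change of 0.01 over 14 tested genes (6 lower, 8 higher, 0 called by edgeR or DESeq2, 2 higher at an unadjusted p under 0.05), with Sox4 at 0.43, Mecom at 0.45 and Hlf at 0.59. Erythroid genes summed to between 15412 and 94553 CPM in WT and between 10426 and 54641 in Fpr2KO. Of these 16 genes 14 were lower and 2 higher, with a median of -0.27 and 0 calls or unadjusted p under 0.05. Megakaryocyte and platelet genes had a median of -0.28 over 13 genes, 12 lower and 1 higher, again with none at either level and 0 DESeq2 calls. Type 2 lymphocyte and follicular helper T cell genes, which bear on Il4, had a median of -0.02 over 14 tested genes, 8 lower and 6 higher, 0 called by either tool and 1 lower at an unadjusted p under 0.05 (Il17rb, -0.71). Their Il5, Il9 and Il13 had no read in any library. The part of these cells in the levels of Gata2, Kit and Il4 was not tested.

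Markers of 2 other granulocyte lineages also had lower summed means in Fpr2KO, as did erythroid, megakaryocyte and platelet, and adipocyte genes. Means in WT and Fpr2KO were 51455 ± 40040 and 28062 ± 18922 CPM (SD) for erythroid genes. They were 979 ± 297 and 831 ± 208 for megakaryocyte and platelet genes, and 66.8 ± 25.9 and 40.9 ± 2.87 for adipocyte genes. The groups overlapped for the erythroid sum and for the megakaryocyte and platelet sum. The WT adipocyte mean rested largely on replicate 3 (96.6 CPM, against 54.4 and 49.5 in replicates 1 and 2). Stem and progenitor genes were at 318 and 335, macrophage genes at 3690 and 3706, and pancreatic acinar genes at 35.4 and 443. B and T cell genes were at 3720 in both. Eosinophil genes, of which 7 of 10 were lower with a median of -0.99, were at 253, 682 and 506 summed CPM in WT and between 329 and 388 in Fpr2KO. The order of the WT libraries was that of Mcpt8, with replicate 1 lowest and replicate 2 highest, and WT replicate 1 lay below all Fpr2KO libraries. Ear1, an eosinophil ribonuclease gene, had 7.71, 58.7 and 31.4 CPM in WT and between 8.96 and 12.7 in Fpr2KO (-1.70, SE 0.64; edgeR adjusted p = 0.986). Alox15 was at -1.49 (SE 0.33; edgeR adjusted p = 0.479; 0.0100 with DESeq2), Siglecf at -0.56 and Ccr3, an eosinophil chemokine receptor, at 0.42 (SE 0.13), and edgeR called 0 of the 10 (5 lower and 1 higher at an unadjusted p under 0.05).

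Neutrophil genes, all 16 of them lower with a median of -1.03, were at 4156, 5368 and 4414 summed CPM in WT and 3265, 1624, 2505 and 1734 in Fpr2KO. EdgeR called 0, DESeq2 called 5, and 9 had an unadjusted p under 0.05. S100a9 (-1.06), S100a8 (-1.03), Ly6g (-1.22) and Mmp9 (-1.03) had the smallest p. Among the WT libraries the summed neutrophil level was lowest in replicate 1, where Hdc was highest. That order is of the sum only, and single genes differed in this. Mmp9, a gelatinase of mature neutrophils, had 151, 116 and 80.4 CPM in WT, the same order of replicates as Hdc. The part of neutrophil or eosinophil transcripts in the levels of the members was not tested.

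**Figure D4:**
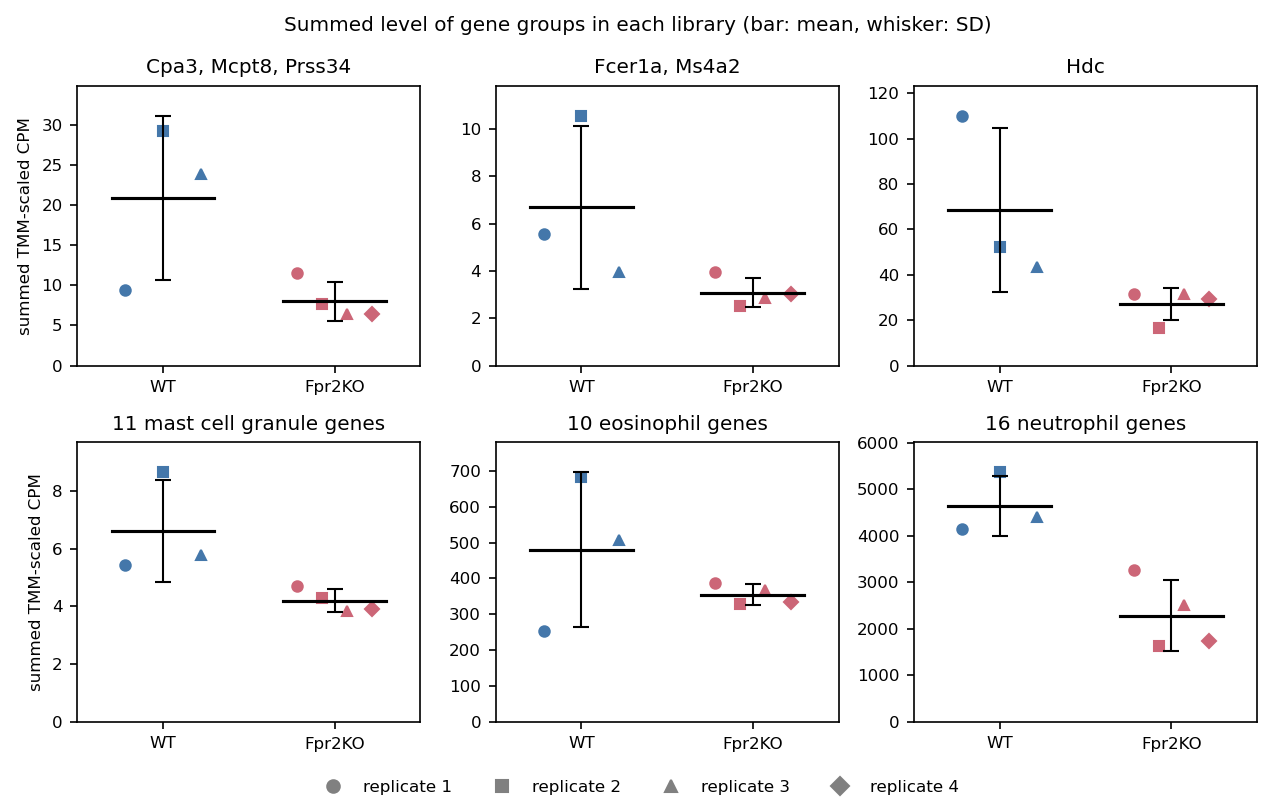
Summed TMM-scaled CPM (y axes, from 0) of 3 member groups and 3 lists of other genes (the mast cell list without Ctsg) in each WT and Fpr2KO library. Shapes give the replicate number, bars the mean and whiskers the SD. WT replicate 1 is low for the proteases (9.45) and for eosinophil genes (253), and high for Hdc (110.0).

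Genes whose library pattern was among the most like the mean pattern of the 10 members were Myo18b, Parp10, Fam173a, Galnt16, Il17rb, Ces1d and Gm28661. Likeness was the Pearson r of log2 CPM with the mean centred log2 CPM of the members over 7 libraries, among 14626 genes averaging 1 CPM or more, and these 7 had r between 0.95 and 0.98 and Spearman rho between 0.86 and 1. In all, 55 genes had an r of at least 0.9. Being the highest of so many, these values carry no p. Without WT replicates 2 and 3, the libraries farthest from the median of the member pattern, r was between 0.84 and 0.96 over 5 libraries. Of these 5, WT replicate 1 was the sole WT library. The genes had been picked over the same libraries, so this r is not a separate check. The mean pattern of the members was positive in each WT library (0.20, 0.86 and 0.35) and negative in each Fpr2KO library (-0.17 to -0.45). A lower level in Fpr2KO was thus part of how these genes were picked. Of the 7, Ces1d, a carboxylesterase gene, had the largest difference between groups, with 2.01, 3.21 and 2.40 CPM in WT and 0.883, 0.644, 1.01 and 0.886 in Fpr2KO (log2 fold change -1.57, SE 0.28; edgeR adjusted p = 0.231), and none of the 7 passed.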

How the data were processed

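Spleen polyA RNA, per the labels, was sequenced from 3 WT and 4 Fpr2KO samples. The authors deposited raw read counts per Ensembl gene, made with HTSeq 0.10.0 on mm10 (GRCm38) after FastQC 0.10.1, per the submitters' processing notes. The aligner, annotation release and strand setting are not given in the sources used here. Symbols, positions and merged exon lengths came from GENCODE M21, in which 52133 of 55414 gene IDs were found.

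The test of Fpr2KO against WT was edgeR 4.0.16 run in R 4.3.3 (TMM, filterByExpr at its defaults, robust quasi-likelihood F test, two-sided, no covariate), with Benjamini-Hochberg adjustment over 16089 genes and a call at 0.05. SE is the log2 fold change divided by the root of F. Log2 CPM used a prior count of 2. Libraries of a group differed by far more than sampling noise. Simulated counts with known changes were used to check the edgeR step. Alternatives were 2 other scalings, DESeq2 1.42.0, limma-voom (limma 3.58.1) with quality weights, no filter, a filter of 1 CPM in 3 samples, robust estimation off, library sizes computed after removing genes of haemoglobin, immunoglobulins and mitochondria, a replicate block, each library left out, and Fpr2KO replicates 1 and 2 left out. A fit also without WT replicate 3 was chosen after seeing the data.

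The members and the 16 other lists were chosen with earlier results of these data known. Named were all members, Fpr2, up to 4 genes of each list with the smallest p, and the 8 genes of most like pattern. Of these, 2 genes are not reported here. A few further genes were added with their values in view, which the text says. Reads of Ms4a2 and Cyp11a1 may be shared, since 2.1% and 2.06% of their 50-base words occur in transcripts of other genes.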

Additional observations from a re-analysis of the deposited data

Results flagged for a closer look

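Among the 4 Fpr2KO libraries, Cpa3 in replicate 1 stood apart, at 3.356 CPM against 2.09 to 2.24 in the other 3. Its gap to the nearest library was 0.882 of the range of the group. Chance flags about 1 in 20 such groups, and 10 were looked at. Fpr2KO replicate 1 is also the library with the most pancreatic transcripts (1081 summed CPM). Replicate 2, with 615, had the lowest Cpa3 level of the group (2.09 CPM). The part of pancreatic transcripts in these values was not tested. Without Fpr2KO replicate 1, the log2 fold change of Cpa3 was -1.36 (edgeR adjusted p = 0.464).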

How the results depend on the processing

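Over 18 alternative fits the 7 lower members and Gata2 had negative log2 fold changes in every fit that held them, and the sole call of a member was Hdc with DESeq2, which gives 1 member called against 0. With each library left out, the count of members called was 0 in every case. Il4 (-0.44 to 0.18 with 1 library left out) and Kit (-0.10 to 0.11) changed sign: Il4 was 0.13 without WT replicate 2, 0.18 without WT replicate 3 and 0.05 without Fpr2KO replicate 1, and Kit 0.0014 with RLE scaling, 0.010 with upper-quartile scaling, 0.0015 with DESeq2, 0.0072 with limma-voom, 0.11 without WT replicate 1 and 0.04 without Fpr2KO replicate 3. Among all genes 6 were called, 57 with DESeq2, 21 without a low count filter, 18 without WT replicate 3 and Fpr2KO replicates 1 and 2, and between 5 and 15 with 1 library left out (15 without WT replicate 3, 10 without WT replicate 1). The cause was not tested. The replicate number as a block gave 2 calls and 0 members. The numbers share no stated source, and the deviations of same-numbered samples had r of 0.08, -0.50 and -0.09 (each of 3 pairs), so they were not taken as pairs. Il4 at 3 to 11 reads a library, and Cyp11a1 at 10 to 39, are limited by depth, and both were untested under the filter of 1 CPM.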

Other observations

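The balance between Hdc and the granule proteases differed between libraries. Hdc was 11.6 times the summed CPM of Cpa3, Mcpt8 and Prss34 in WT replicate 1, 1.79 and 1.81 times in WT replicates 2 and 3, and 2.76, 2.17, 4.91 and 4.54 times in Fpr2KO replicates 1 to 4. The ratio of Mcpt8 to Cpa3 was 0.607, 1.35 and 1.52 in WT and 0.912, 1.08, 0.973 and 0.558 in Fpr2KO, so that WT replicate 1 and Fpr2KO replicate 4 shared the lowest values.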
